A study of Xenopus tropicalis with 3 samples.

Results

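The A, B, D and E cyclins are the classical cell cycle cyclins, the regulatory subunits that switch on cyclin-dependent kinases (CDKs). They were chosen here by name from the gene names of the deposited table: 9 of 10 names sought were present (ccna1, ccna2, ccnb1, ccnb2, ccnb3, ccnd1, ccnd2, ccne1 and ccne2), listed as 11 of 35047 transcript rows and 9 of 17647 genes. The tenth name, ccnd3, matched no gene name and was not analysed here. All 9 reached 1 FPKM (fragments per kilobase of transcript, scaled to the mapped fragments of a library) at 1 stage or more, so all 9 are among the 11771 genes compared.

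RNA came from the prospective epidermis of Xenopus tropicalis embryos, cut out by hand as animal caps at the gastrula (NF10.5), neurula (NF16) or tailbud (NF24) stage; the labels name no genotype, transgene or agent. The labels give 3 biological replicates per stage, but the table has 1 value per stage, taken as the authors' mean over them, so no spread between replicates, no depth and no test is available for any value below. The design asks how gene and isoform expression differ between these stages of epidermis formation. The cyclin types are compared here between the same stages, all of them later than the rapid cleavages of the early embryo. A gene is called lower or higher where log2(FPKM + 1) differed by at least 1 between stages, a ratio of 2 after adding 1 FPKM, on values summed over a gene's transcripts.

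In the textbook cycle, D cyclins with CDK4 or CDK6 respond to growth signals in G1, E cyclins with CDK2 drive entry into S phase, A cyclins act with CDK2 and CDK1 through S and G2, and B cyclins with CDK1 drive mitosis. The Xenopus egg is loaded with cyclin mRNA for a series of rapid cleavages without gap phases, which end at the mid-blastula transition. Cycles then lengthen through gastrulation, and A and B cyclin proteins are destroyed in each cycle by the anaphase-promoting complex (APC/C). In bulk tissue, fewer cells of a type and less RNA per cell cannot be told apart.

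Between gastrula and neurula 8 of 9 cyclin genes were lower and 0 higher, while 39.0% of all compared genes were lower and 20.9% higher. Only ccnd1 was not called. The median log2 difference of the 9 cyclins was -2.68, against -0.57 over all compared genes. From neurula to tailbud 4 of 9 were lower and 0 higher, against backgrounds of 4.84% lower and 6.91% higher, with medians of -0.96 for the cyclins and 0.12 for all genes. Across the whole interval, which shares its end stages with both steps, 8 were lower and 0 higher, against 36.9% and 25.4% of all genes, and the cyclin median was -3.91. The split of all compared genes at NF16 against NF10.5 depended on scaling, with 2466 higher and 4586 lower as deposited and 3279 and 2854 with median-of-ratios scaling, which moved the median of all genes from -0.57 to -0.03. The cyclin median at that step was then -2.05. Summed over the 9 genes, cyclin FPKM stood at 2859 in the gastrula, 457 in the neurula and 202 in the tailbud, or 0.494%, 0.0860% and 0.0399% of all FPKM in the table.

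**Figure D1:**
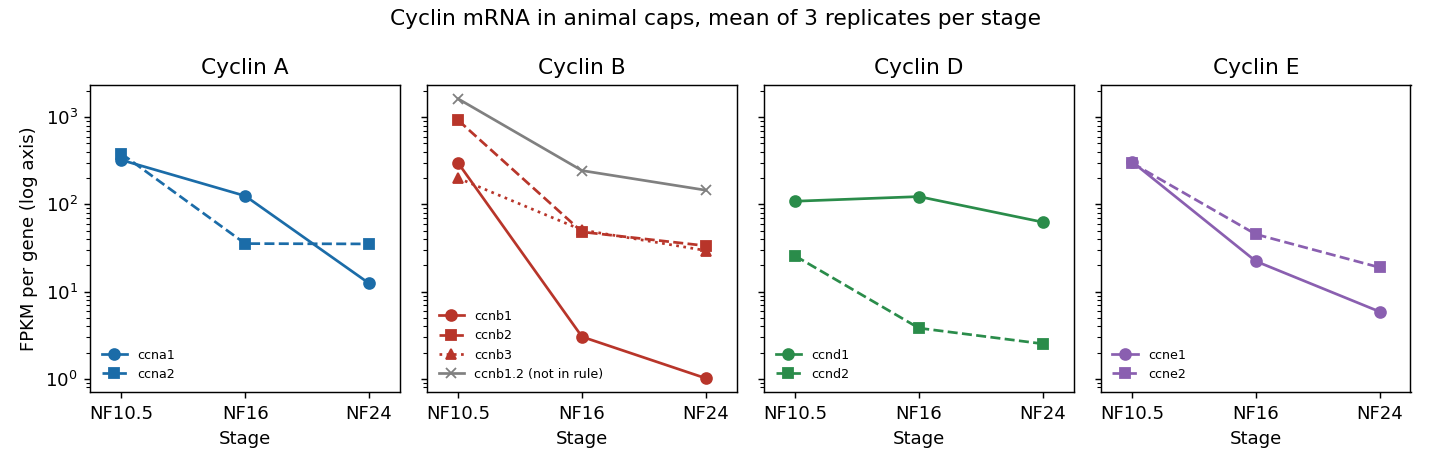
FPKM per gene (log axis) at NF10.5, NF16 and NF24 for the A, B, D and E cyclins, with ccnb1.2 in grey for reference; each point is the authors' mean over 3 labelled replicates and has no error bar. Only ccnd1 was as high at NF16 as at NF10.5, and the lines of ccna1 and ccna2 cross between NF10.5 and NF16 and again between NF16 and NF24.

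The B cyclins, the mitotic type, went from a summed 1415 FPKM at NF10.5 to 102 at NF16, a 13.9-fold difference, and then to 64.1 at NF24. With ccnb1.2 counted as a B cyclin, an addition chosen after seeing the data, the sum went from 3034 to 346 FPKM at the first step, an 8.77-fold difference, beside 8.95-fold for the E cyclins. Their members differed widely among themselves. The gene ccnb1 was listed at 296 FPKM in the gastrula, 3.03 in the neurula and 1.01 in the tailbud. It was abundant in the gastrula and low at both later stages, with 1.02% of its gastrula value left at NF16. At that step its log2 difference was -6.21, and only 1 of the 11771 genes, the unnamed LOC100493862, had a lower difference. With 1 FPKM added, genes with low gastrula values cannot reach such a difference even at 0 FPKM. The rank of ccnb1 therefore depends in part on its high gastrula value. The further difference to NF24 was -1.001, just past the threshold and between values so low that the choice of pseudocount decides it: with 5 FPKM added it was -0.42.

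The most abundant member in the gastrula was ccnb2, at 919 FPKM, rank 67 of the compared genes. It had 48.3 FPKM at NF16 and 33.5 at NF24. Most of its drop thus lay in the first step (log2 -4.22), and the second step was not called (log2 -0.52). For ccnb3, which in mouse is known for promoting anaphase in oocyte meiosis, the values were 200 FPKM in the gastrula, 50.8 in the neurula and 29.6 in the tailbud. Its first step was the shallowest of the B type (log2 -1.95), its second was not called (-0.76), and 14.8% of its gastrula value was left at NF24. The ratio of ccnb2 to ccnb3 went from 4.60 at NF10.5 to 0.951 at NF16 and 1.13 at NF24.

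A second B1 gene, ccnb1.2, carries a name outside the rule and is given only for comparison, since it was more abundant than any of the 9. It had 1619.6 FPKM in the gastrula, 244 in the neurula and 145 in the tailbud, with log2 differences of -2.73 and -0.74. Unlike ccnb1 it was still among the top 3.16% of compared genes at NF16 and the top 4.85% at NF24, where ccnb1 was at rank 10762 of 11771. Its 2 transcripts kept nearly the same proportions, the leading one holding 81.6%, 82.0% and 80.1% of the gene's FPKM at the 3 stages. How the authors' quantification divided reads between the ccnb1 and ccnb1.2 transcripts cannot be checked from FPKM.

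The A cyclins differed in timing. In the gastrula, ccna1 and ccna2 were close, at 323 and 382 FPKM. In Xenopus laevis, cyclin A1 is known as the egg and early embryo form and cyclin A2 as the later, somatic form. Here ccna2 had 35.5 FPKM at NF16 and 35.2 at NF24. Nearly its whole drop lay in the first step (log2 -3.39), and the 2 later stages were the most alike of any cyclin (log2 -0.01).

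The gene ccna1 had the opposite schedule, with 323 FPKM in the gastrula, 125 in the neurula and 12.5 in the tailbud. It kept 38.8% of its gastrula value at NF16, second only to ccnd1, and then 9.97% of its neurula value at NF24. The first step was called as deposited (log2 -1.36), yet 3435 of 11771 genes had a lower difference, and with median-of-ratios scaling it was not called (-0.73). At the second step (log2 -3.23) only 5 compared genes had a lower difference: mcidas, cdc20b, znf329, fbxo43 and poc1a. With 1 FPKM added, genes with low neurula values could not reach such a difference. The ratio of ccna1 to ccna2 was 0.845 in the gastrula, 3.52 in the neurula and 0.354 in the tailbud, so that A1 was the larger mRNA of the pair at the neurula stage and A2 at the others.

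Some genes of multiciliated cells were lower at the same step as ccna1. Of the 6 markers listed for these cells, 5 were higher at NF16 and 0 lower, then 3 lower and 0 higher at NF24. Of all compared genes, 20.9% were higher and 39.0% lower at NF16, then 4.84% lower and 6.91% higher at NF24. The summed level of the 6 markers was 76.5, 559 and 417 FPKM at the 3 stages. The coactivator gene mcidas had 1.23, 50.9 and 2.78 FPKM, and cdc20b, which acts in centriole amplification, had 0.34, 44.5 and 2.96. The related cyclin gene ccno, required for centriole amplification in these cells, had 25.8, 50.3 and 5.45 FPKM. Unlike mcidas and cdc20b, ccna1 had its highest value in the gastrula. The axoneme markers tekt1 (122 and 149 FPKM) and spag6 (192 and 198 FPKM) were not called between NF16 and NF24, nor was foxj1 (98.9 and 58.9 FPKM). What part multiciliated cells have in the neurula level of ccna1 was not tested.

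The E cyclins, which drive entry into S phase, were lower at both steps, in both genes. For ccne1 the values were 308 FPKM in the gastrula, 22.3 in the neurula and 5.89 in the tailbud. Each stage was well below the stage before it, with log2 differences of -3.73 and -1.76. For ccne2 they were 297 FPKM in the gastrula, 45.4 in the neurula and 18.9 in the tailbud, with log2 differences of -2.68 and -1.22. The pair began at nearly the same level and parted later: the ratio of ccne2 to ccne1 was 0.965 in the gastrula, 2.04 in the neurula and 3.21 in the tailbud. Together with ccna1 and ccnb1, the E cyclins made up the 4 of 9 members that were lower at both steps, while 2.37% of all compared genes were. Of these 4, ccna1 was not called at the first step with median-of-ratios scaling (-0.73). With a pseudocount of 5, ccnb1 was not called at the second (-0.42). Both steps use the same NF16 values.

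The D cyclins, the G1 type, went separate ways. For ccnd1 the values were 109 FPKM in the gastrula, 123 in the neurula and 62.6 in the tailbud. The neurula value was the highest of the 3, at 113% of the gastrula value, and the tailbud value was 51.0% of the neurula value. Neither step was called (log2 0.18 and -0.96), nor was the whole interval (-0.79), though the second step lay close to the threshold and passed it with median-of-ratios scaling, at -1.10. Set against the median of all genes, which was itself below 0 at the first step, ccnd1 lay 0.74 above that median at NF16 against NF10.5 and at -1.08 from it at NF24 against NF16.

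The other D gene, ccnd2, was the least abundant of the 9 in the gastrula, with 25.6 FPKM, and had 3.81 at NF16 and 2.52 at NF24. It was lower at the first step (log2 -2.47) and not called at the second (-0.45). Among the D cyclins ccnd1 thus held nearly all FPKM, at 4.24 times ccnd2 in the gastrula and 32.2 and 24.8 times at the later stages. The gene ccndx, a further D-type cyclin by its symbol that was noted after its values were seen, had 31.6, 6.19 and 8.64 FPKM.

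The make-up of cyclin mRNA therefore differed between stages. At NF10.5 the B type held 49.5% of the summed FPKM of the 9 genes, the A type 24.6%, the E type 21.2% and the D type 4.70%. At NF16 the A type led with 35.1%, of which ccna1 was 27.4%, followed by the D type with 27.7%, the B type with 22.3% and the E type with 14.8%. At NF24 the D type held 32.3% and the B type 31.8%, a difference too small to order without replicates, while the A type held 23.6% and the E type 12.3%. With ccnb1.2 and ccndx added to the sum, the B type led at every stage, at 67.3%, 48.9% and 58.9%, and the D type had 3.68%, 18.8% and 20.7%. The higher D share and lower E share at the later stages were present in both sums.

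**Figure D2:**
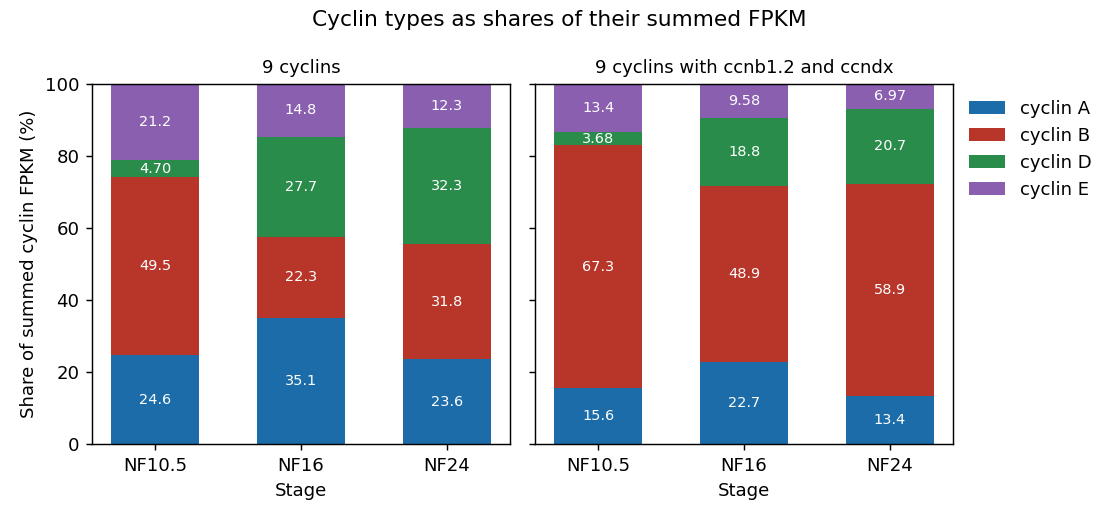
Share (%) of each cyclin type in summed cyclin FPKM per stage, for the 9 genes (left) and with ccnb1.2 and ccndx added (right); bars stack to 100%. The D share is 4.70% at NF10.5 and 32.3% at NF24 on the left, and 3.68% and 20.7% on the right. Summed D cyclin FPKM of the 9 genes was 134 at NF10.5 and 65.1 at NF24.

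The order of levels also turned over. In the gastrula it ran ccnb2, ccna2, ccna1, ccne1, ccne2, ccnb1, ccnb3, ccnd1 and ccnd2, with ccna1, ccne1, ccne2 and ccnb1 all between 296 and 323 FPKM. In the neurula ccna1 and ccnd1 led at 125 and 123 FPKM, followed by ccnb3, ccnb2 and ccne2 between 45.4 and 50.8, then ccna2, ccne1, ccnd2 and ccnb1. In the tailbud ccnd1 led at 62.6 FPKM, followed by ccna2, ccnb2 and ccnb3 between 29.6 and 35.2, then ccne2, ccna1, ccne1, ccnd2 and ccnb1. Whether neighbours at such close values differ cannot be judged without the replicates. Against all genes, ccnd1 held its rank best of the 9, within the top 7.96%, 5.80% and 11.1% at the 3 stages, while ccne1 went from the top 2.07% to the top 28.0% and 64.0%. Outside the rule, ccnb1.2 was above all 9 at each stage, with 1619.6, 244 and 145 FPKM.

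**Figure D3:**
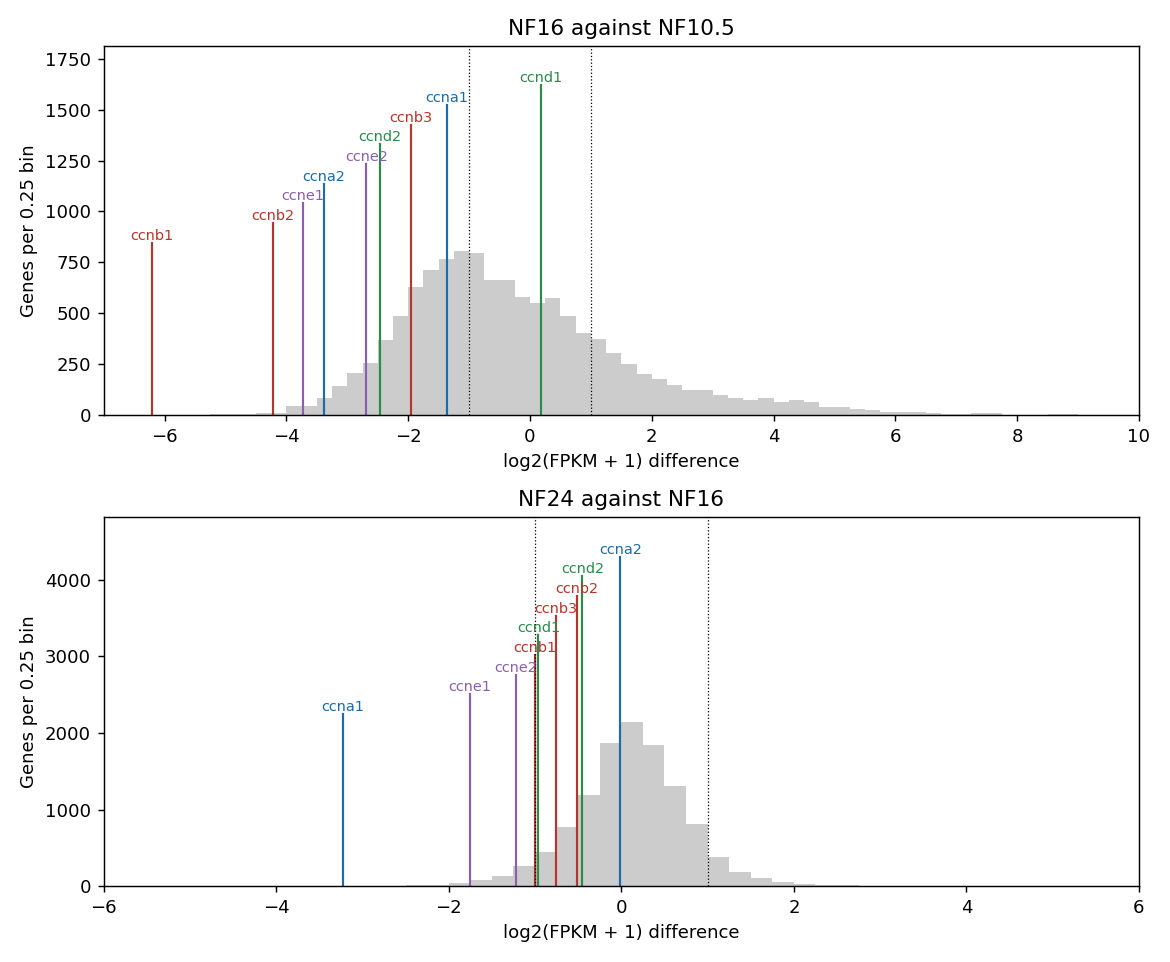
Number of genes by log2(FPKM + 1) difference for all 11771 compared genes (grey), for NF16 against NF10.5 (top) and NF24 against NF16 (bottom, narrower axis), with the 9 cyclins as coloured lines (blue A, red B, green D, purple E) whose heights carry no value; dotted lines mark differences of -1 and 1. At the first step every cyclin except ccnd1 lies below -1, and at the second ccna1 stands farthest left at -3.23.

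At the level of transcripts, 7 of the 9 genes were listed with 1 transcript each, so no isoform comparison was possible for them. For ccne1 the leading transcript held 93.2%, 90.0% and 84.5% of the gene's FPKM at the 3 stages, and the minor one was at 20.9, 2.24 and 0.913 FPKM. For ccnd2 the leading transcript held 89.5%, 98.7% and 100%, and the minor one, at 2.69 FPKM in the gastrula, was listed at 0 at NF24. No member changed its leading transcript.

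The cdk1 and cdk2 genes, for kinases that these cyclins bind, were called at no step. In what follows, counts at NF16 are against NF10.5 and counts at NF24 against NF16. They are to be read beside all compared genes, of which 39.0% were lower and 20.9% higher at NF16, and 4.84% lower and 6.91% higher at NF24. With median-of-ratios scaling 2854 of the 11771 genes were lower at NF16 and 3279 higher. The mitotic kinase gene cdk1 had 52.8 FPKM in the gastrula, 60.02 in the neurula and 52.3 in the tailbud, and cdk2 had 33.4, 25.9 and 27.7. Both were also not called with the other scalings. The sign for cdk2 at NF16 against NF10.5 turned from -0.35 to 0.26 with median-of-ratios scaling and to 0.27 with quantile normalization. Summed A and B cyclin FPKM was 40.1 times that of cdk1 in the gastrula, 4.38 times in the neurula and 2.14 times in the tailbud. With ccnb1.2 added to that sum, also chosen after seeing the data, the ratios were 70.8, 8.44 and 4.91. Summed E cyclin FPKM was 18.2, 2.61 and 0.895 times that of cdk2. The D cyclin partner cdk6 was at 0.51, 7.52 and 9.68 FPKM and was the only gene of its list called higher as deposited. Of 7 CDK, CDK-activating and Cks genes compared, 1 was higher and 2 lower at NF16, the lower ones being mnat1 (102 and 10.2 FPKM) and ccnh (59.2 and 7.84 FPKM), which encode parts of the CDK-activating kinase. As deposited neither share exceeded that of all genes, and median-of-ratios scaling gave 2 higher and 2 lower. Besides cdk6, the higher one was then cdk7, for the kinase subunit of the CDK-activating kinase. It had 8.74, 15.8 and 8.27 FPKM, with a log2 difference at NF16 of 0.79 as deposited and 1.36 with median-of-ratios scaling. Of these 7, 0 were called between NF16 and NF24 as deposited, where cks2, a small CDK-binding protein gene, had 61.04 and 44.9 FPKM. With quantile normalization cdk7 was lower at that step (-1.12).

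Of 8 listed CDK inhibitor genes 5 were found in the table and 3 of these reached 1 FPKM. Of these only cdkn2b was lower, at both steps, with 33.7, 2.18 and 0.41 FPKM. Its second step (log2 -1.18) lay between low values, where a difference is less certain and depends on the pseudocount. The p21 gene cdkn1a had 45.7, 71.7 and 50.9 FPKM and was not called as deposited (log2 0.64 at NF16), but was higher at NF16 with median-of-ratios scaling (1.26), and cdknx, which encodes the Xenopus inhibitor of CDK2 complexes, had 86.9, 112 and 84.6. Among 10 genes of the phosphorylation switch that turns CDK1 on and off, 8 were lower and 1 higher at NF16 (median -1.76), or 5 lower with median-of-ratios scaling, then 1 lower and 0 higher at NF24 (median 0.08). The activating phosphatase genes cdc25a, cdc25b and cdc25c went from 123 to 10.8, from 46.8 to 9.10 and from 80.5 to 18.9 FPKM, and the inhibitory kinase gene pkmyt1 from 23.7 to 5.28. The single gene higher at NF16 was ensa, with 19.0, 39.6 and 57.9 FPKM at the 3 stages. The single gene lower at NF24 was mastl, a kinase that protects mitotic phosphorylation, at 27.3 and 12.1 FPKM.

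Of 16 regulators of cyclin transcription, 13 were lower and 0 higher at NF16 (median -1.57), or 8 lower with median-of-ratios scaling, and 2 were lower and 0 higher at NF24 (median 0.09). Lower at the first step were the E2F genes e2f5 (110 and 19.0 FPKM), e2f4 (83.3 and 15.2) and e2f1 (22.2 and 4.45), and lin54 (65.2 and 13.7), the DNA-binding part of the DREAM complex. At the second step e2f7, a repressor of the E2F family, went from 30.5 to 8.74 FPKM, and the retinoblastoma gene rb1 from 21.0 to 8.67. Among genes for cyclin destruction 18 of 22 were lower and 0 higher at NF16 (median -1.83), or 14 lower and 2 higher with median-of-ratios scaling. The lower ones as deposited included the APC/C subunit genes anapc10 (77.1 and 9.90 FPKM) and anapc5 (35.4 and 4.78), the SCF scaffold gene cul1 (124 and 16.9) and the ubiquitin-conjugating enzyme gene ube2s (285 and 48.6). At NF24, 2 of 22 were lower and 0 higher (median -0.27): fbxo43, an APC/C inhibitor gene, at 20.2 and 1.11 FPKM, and the APC/C activator gene cdc20, at 88.9 and 41.7.

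Of 15 other cyclins compared, 10 were lower and 1 higher at NF16 (median -1.48), or 7 lower and 3 higher with median-of-ratios scaling, and 2 were lower and 0 higher at NF24 (median -0.16). Besides ccnb1.2, the lower ones with the largest differences were ccnyl1 (44.4 and 7.73 FPKM), ccnj (93.4 and 19.8) and ccnf (81.15 and 18.9). The higher one as deposited was ccng2 (15.2 and 48.6 FPKM). At NF24 the lower ones were ccno and ccng1 (183 and 85.9 FPKM), a p53 target gene in mammals. Of 12 proliferation markers, 11 were lower and 0 higher at NF16 (median -1.87), or 7 lower with median-of-ratios scaling, and 3 were lower and 0 higher at NF24 (median -0.56). Among them birc5.1, a survivin gene, went from 163 to 4.72 FPKM, and the centromeric histone gene cenpa from 161 to 5.44. The gene mcm3 went from 89.3 to 7.26 FPKM, and the spindle checkpoint gene bub1 from 164 to 21.95. Others of this list kept more: birc5.2 went from 113 to 37.9 FPKM, and mcm5, at 46.7 and 31.2, was not called. At the second step the replication clamp gene pcna went from 153 to 65.0. Joined without repeats, the 7 lists held 85 compared genes, of which 63 (74.1%) were lower and 3 higher at NF16 and 11 (12.9%) lower and 0 higher at NF24. With median-of-ratios scaling 44 were lower and 9 higher at NF16.

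**Figure D4:**
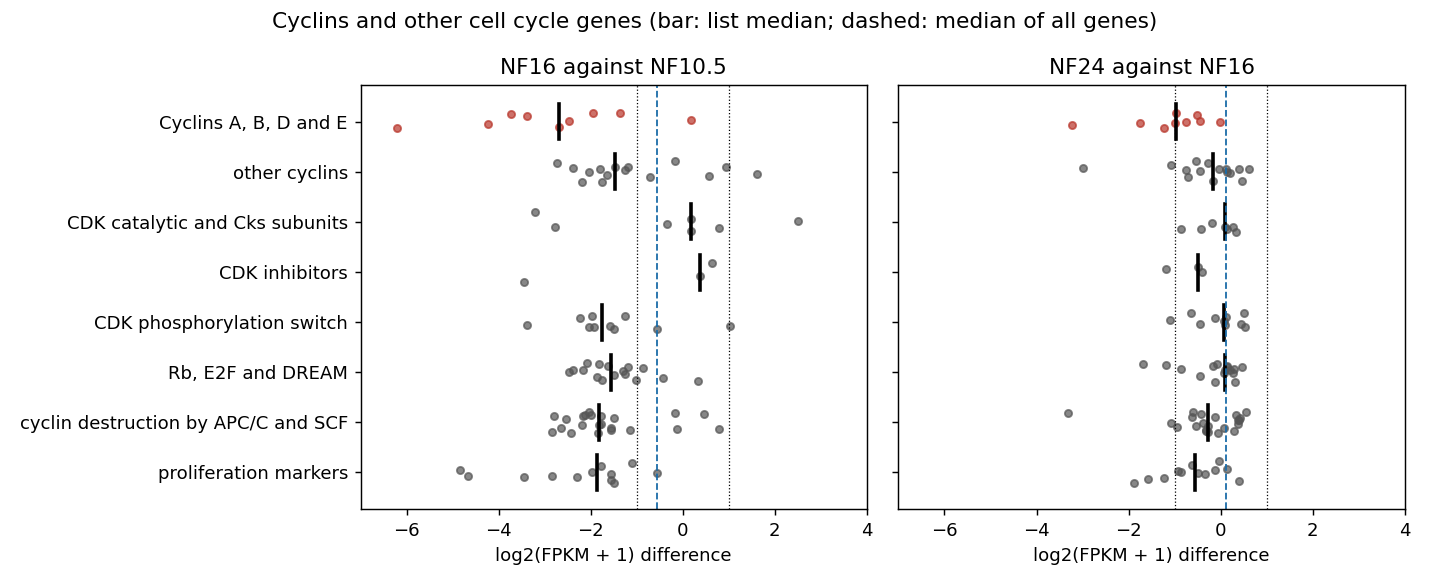
Log2(FPKM + 1) difference of each compared gene, by list, for NF16 against NF10.5 (left) and NF24 against NF16 (right); red points are the 9 cyclins, grey points other cell cycle genes, black bars list medians, the dashed line the median of all genes and dotted lines -1 and 1. The cyclin median is -2.68 at the first step, while the CDK and Cks list has a median of 0.18.

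A search for genes with a similar course compared each cyclin with 7516 other named genes that reached 10 FPKM, by the Euclidean distance between log2(FPKM + 1) values over the 3 stages, each gene centred on its own mean. With 3 points per gene, this likeness is a description only. For ccna2 the nearest were kiaa0101, which encodes a PCNA-binding protein (distance 0.06), csnk1g2 and prrg1. For ccnb2 they were the oocyte kinase gene mos (0.09), cpeb1, which encodes an RNA-binding regulator of maternal mRNA translation, and oat.1. For ccne2 they were qsox1 (0.02), the replication origin gene orc2 and eda2r, for ccne1 mreg (0.08), plin3 and sp5l, for ccnb3 nmrk1 (0.01), fgf2 and rab11fip4l, and for ccnd2 nsun6 (0.02), stox1 and zc3h7b. The course of ccnd1 was nearest to those of zcchc11 (0.04) and of the RNA-binding protein and helicase genes fus and ddx39a. Adding 1 FPKM makes ratios between low values look smaller, so a neighbour with low later values can fall further than its cyclin. Such was mos, with 54.6, 1.96 and 0.923 FPKM, beside 919, 48.3 and 33.5 for ccnb2.

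The remaining cyclins had no such close neighbour. For ccna1 the nearest gene was the Oct4-type factor pou5f3.1 at a distance of 0.55, with 136, 30.02 and 3.45 FPKM, followed by crx and gyg1 at up to 0.85. For ccnb1 it was gs17 at 0.37, with 219, 3.08 and 1.04 FPKM, followed by tdgf1.3, for a Nodal co-receptor, and by pou5f3.2, the last at 0.66. Among the cyclins themselves the closest pair was ccnb3 and ccnd2 (0.37), of different types, and the farthest was ccnb1 and ccnd1 (5.23). For members of 1 type the distance was 2.30 for the A pair, 1.98 for the D pair, 1.14 for the E pair and between 1.76 and 3.57 for the 3 B genes. One pair of different types, ccnb3 and ccnd2, was thus closer than any pair of 1 type, and another, ccnb1 and ccnd1, was farther apart.

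As a check of the tissue, 7 of 7 epidermal markers were present at every stage, with a summed level of 2239 FPKM in the gastrula, 34899.8 in the neurula and 34133 in the tailbud. Most of the neurula sum was the keratin genes krt and krt5.7, at 12721 and 17079 FPKM. Of the 7, 5 were higher and 0 lower at NF16, with grhl3 and tfap2a not called, and 0 were called at NF24. Marker levels of other tissues also differed between stages. The 4 mesoderm and muscle markers had a summed level of 2.22, 223 and 319.9 FPKM, all 4 higher at NF16, and mylpf and nkx2-5 were at 0.113 and 0.0867 FPKM in the gastrula. The 6 genes listed as neural markers had a summed level of 1012, 148 and 84.7 FPKM. Most of it was sox3 (793, 89.3 and 28.1) and sox2 (199, 37.3 and 22.1), so the sum does not stand for the whole list. At NF16, 3 of the 6 were lower (sox2, sox3 and elavl3). The 3 higher were ncam1, tubb3 and rax, each below 1 FPKM in the gastrula. The 3 endoderm markers had a summed level of 44.5, 6.98 and 6.91 FPKM, with 2 lower at NF16. Their part in the cyclin values was not tested.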

How the data were processed

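Total RNA of animal caps was depleted of ribosomal RNA and made into directional paired-end libraries, per the labels' protocols, which name no poly(A) selection. The submitters' processing notes list STAR 2.4.2a and RSEM 1.3.0 but no settings; the genome build is not given in the sources used here. The authors deposited FPKM per RefSeq transcript, in 35047 rows and a single column for each stage. All 83506 values above 0 were multiples of 0.01 divided by 3, to within 0.0001 FPKM, so each is taken as the authors' mean over 3 replicates. Depth is unknown, and no interval, detection floor or test between stages was possible.

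FPKM was summed per gene with pandas 2.3.3, and 19 repeated transcript rows, 0 of them in the cyclins, were kept. Genes with at least 1 FPKM at 1 stage or more were compared as log2(FPKM + 1), with a difference of at least 1 called. The members and gene lists were chosen with earlier results of these data known. Named genes are all members, up to 4 genes per list with the largest called difference and at least 10 FPKM (otherwise the 2 most abundant), and the 3 nearest patterns per member. The text also names cdk2, cdk6, cdk7, cdc20b, ccndx, mcidas, birc5.2, mcm5, ensa, ccng2 and tissue markers for context. Of 141 listed genes, 113 were found by symbol. The computation was tested on simulated data. TPM, median-of-ratios and quantile scaling, pseudocounts of 0.1 and 5, a filter at 5 FPKM or none, the highest transcript and each transcript counted once were tried as alternatives.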

Additional observations from a re-analysis of the deposited data

How the results depend on the processing

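Of 243 values for the 9 cyclins over 3 comparisons and 9 other settings, 240 kept their side of the threshold, and 1 of these, ccna2 at NF24 against NF16, not called, changed sign with TPM scaling (from -0.01 to 0.06). The others were ccna1 at NF16 against NF10.5 and ccnd1 at NF24 against NF16 with median-of-ratios scaling (log2 -0.73, no longer called, and -1.10, now called), and ccnb1 at NF24 against NF16 with a pseudocount of 5 (-0.42, no longer called). Part of the 240 was fixed in advance. The filters leave each cyclin's value as it is, and no cyclin row was repeated. For a gene listed with 1 transcript, the highest transcript equals the sum. The number of cyclins lower was 7 or 8 at the first step, 3 to 5 at the second and 8 over the whole interval. Quantile normalization gave shares at NF10.5 of 27.1% for A, 45.8% for B and 23.1% for E cyclins, and at NF16 of 26.4% for D and 15.9% for E. It replaces each value by a reference value for its rank, which changes ratios between genes of a stage. TPM and median-of-ratios scaling divide each stage by 1 factor and so cannot change a share. Adding ccnb1.2 and ccndx, chosen after seeing the data, gave shares at NF10.5, NF16 and NF24 of 15.6%, 22.7% and 13.4% for A, 67.3%, 48.9% and 58.9% for B, 3.68%, 18.8% and 20.7% for D, and 13.4%, 9.58% and 6.97% for E. Listed cell cycle genes higher at NF16 numbered 3 as deposited, 9 with median-of-ratios scaling and 8 with quantile normalization. Those lower at NF24 against NF16 numbered 11 as deposited, 15 with median-of-ratios scaling and 6 with a pseudocount of 5. No paired analysis was possible because the table holds 1 mean per stage, and for the same reason no replicate could be left out. Without depth, differences between low values such as those of ccnb1 and ccnd2 at the later stages are the least certain.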
